A study of Mus musculus with 33 samples.

Results

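Transthyretin (Ttr), folate receptor 1 (Folr1), the potassium channel subunit Kcne2, the chloride intracellular channel protein Clic6 and the prolactin receptor (Prlr) are 5 genes of the choroid plexus, 5 of 55401 genes in a count table of the developing mouse frontal bone region. They were chosen by measured values, since Ttr had the largest increase of any tested gene between E10.5 and E12.5. All 5 were in the table and all 5 passed the filter on low counts, which kept 20073 genes. The study measured polyA RNA by sequencing, in tissue labelled as the calvarial frontal bone, with 3 libraries at each of 11 embryonic stages (days after conception, written E) and 33 in all. The stages ran from E8.5 to E12.5 in steps of 0.5 days and went on with E13.5 and E14.5. The labels give no strain, genotype or treatment, and they are silent on whether replicate libraries stand for single embryos, litters or pools, so p-values measure the spread between these libraries, which may be technical. The letters a, b and c below only name the libraries of a stage.

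The choroid plexus is a sheet of secretory epithelium over a vascular core that grows into the brain ventricles from the dorsal midline and makes cerebrospinal fluid. Its epithelium releases transthyretin, which carries thyroid hormone and, with retinol-binding protein, vitamin A. The epithelium takes up folate and ions through receptors, transporters and channels at its surface. In the embryo, transthyretin is also made by the visceral endoderm, the liver and the retinal pigment epithelium, and folate receptor 1 is used by the closing neural tube. The skull vault lies over the forebrain, and bone of the vault comes from mesenchyme, not from brain epithelium.

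Kcne2 (ENSMUSG00000039672) lies on chromosome 16 of the GRCm38 build at 92292389 to 92298129, and Clic6 (ENSMUSG00000022949) lies on the same chromosome at 92485736 to 92541243, both on the plus strand. All 5 are protein-coding, and the values below count reads over all exons of a gene. Of the members other than Ttr, whose promoters were not looked up, Kcne2 and Prlr matched the RefSeq promoter table (GRCm38.p6), Kcne2 with 2 start sites. The 250 bases before each Kcne2 start are shown because Kcne2 and its neighbour Clic6 changed in the same steps, and CpG dinucleotides, the sites of DNA methylation, are in capitals. The first window, chr16:92292139-92292388, and the other, chr16:92295366-92295615, are both read on the plus strand.
Kcne2 start site 1: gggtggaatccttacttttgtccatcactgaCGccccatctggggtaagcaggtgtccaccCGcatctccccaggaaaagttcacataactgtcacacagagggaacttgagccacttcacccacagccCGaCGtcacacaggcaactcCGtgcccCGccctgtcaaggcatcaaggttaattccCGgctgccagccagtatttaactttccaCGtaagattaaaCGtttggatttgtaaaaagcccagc
Kcne2 start site 2: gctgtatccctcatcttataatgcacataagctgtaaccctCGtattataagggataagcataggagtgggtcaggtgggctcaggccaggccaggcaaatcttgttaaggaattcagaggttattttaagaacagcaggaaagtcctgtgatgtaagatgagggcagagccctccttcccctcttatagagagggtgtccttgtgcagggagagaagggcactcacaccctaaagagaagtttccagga
The window before the first start site held 9 CpG dinucleotides and the window before the other held 1, against a median of 6 over 32851 promoters in the table. Counts per gene do not tell which start site was used. The letters TAATCC, a core read by Otx-type homeodomain proteins, were on neither strand of the 300 bases from 250 before to 50 after each Kcne2 start, and 7.06% of all promoter windows of that length held them. The forkhead core TGTTTAC was also absent there, against 3.65% of all windows, and 1 of the 3 Prlr windows held it. The TATA box core TATAAA was absent from both Kcne2 windows and present in 13.6% of all windows.

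The libraries held between 14516518 and 19964404 counts (median 17081223), and values below are CPM, the count of a gene scaled to a fixed library size, after TMM scaling. Libraries of E12 and of E13.5 stood apart from their own stage in a way that followed gene length. The correlation of log2 gene length with the deviation of log2 CPM from the stage mean was -0.22, -0.12 and 0.27 in the E12 libraries a, b and c, and 0.23, 0.22 and -0.30 in the E13.5 libraries a, b and c, against -0.05 to 0.04 in the libraries of the other 9 stages. Counts of library pairs also differed most there, with a chi-square per gene of 21.6 to 125 between E12 libraries and of 63.1 and 67 between library c of E13.5 and the others, against at most 11.4 at the other stages. Their part in the results was not tested, and values without these libraries are given where they change a call. The fit shares its estimate of the spread of a gene over all stages. Standard errors, p-values and shares of genes called at E12 and E13.5 therefore do not fully reflect the wider spread there. Scaling by library totals alone moved the median log2 fold change of all genes at E14.5 against E8.5 to 0.59, against 0.16 with TMM. It also raised the share of higher genes among those called to 74.8% at E10 against E8.5 (57.6% with TMM), 64.2% at E11 against E10 (54.0% with TMM), 69.4% at E11.5 against E11 (46.7% with TMM, 58.2% with DESeq2's size factors), 69.5% at E13.5 against E12 (51.9% with TMM), 60.4% at E14.5 against E13.5 (47.1% with TMM) and 71.3% at E14.5 against E8.5 (55.0% with TMM). It lowered the share to 31.0% at E12 against E11.5 (48.3% with TMM). Removing a gene length trend in each library gave 42.5% at E10 against E8.5.

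Ttr (ENSMUSG00000061808, chromosome 18, 20665280 to 20674321, plus strand) was near 0 until E9.5, low at E10, near 0 again at E10.5 and abundant from E11. Its counts were 2, 2 and 4 in the libraries of E8.5, 0, 0 and 1 at E9, and 0 in all 3 at E9.5, which allows up to 3 counts over that stage. At E10 the 3 libraries held 27, 28 and 29 counts, and at E10.5 they held 0, 1 and 1. The E10 libraries stood above those of E9.5 with no overlap. The ratio was 27.6 when 3 counts over the 3 libraries of E9.5 were taken as the floor, and the 95% counting interval began at 22.0. The low level at E10.5 is part of what chose Ttr. Floors and counting intervals cover counting error only.

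From E11 the Ttr level was 40.9, 45.9 and 45.4 CPM, and at E11.5 it was 460, 472 and 466 CPM. It was 234, 164 and 105 CPM at E12, 184, 172 and 183 CPM at E12.5, 514, 504 and 865 CPM at E13.5, and 95.8, 90.6 and 94.6 CPM at E14.5. The level did not climb steadily but had a peak at E11.5, lower values at E12 and E12.5, its highest values at E13.5 and a drop at E14.5. The stage means, highest first, were 628 ± 206 at E13.5, 466 ± 6.27 at E11.5, 180 ± 6.93 at E12.5, 168 ± 64.9 at E12, 93.7 ± 2.71 at E14.5, 44.1 ± 2.76 at E11 and 1.63 ± 0.0507 CPM at E10 (SD, n = 3 each). Neighbours in this order had no overlapping libraries except E12.5 and E12.

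**Figure D1:**
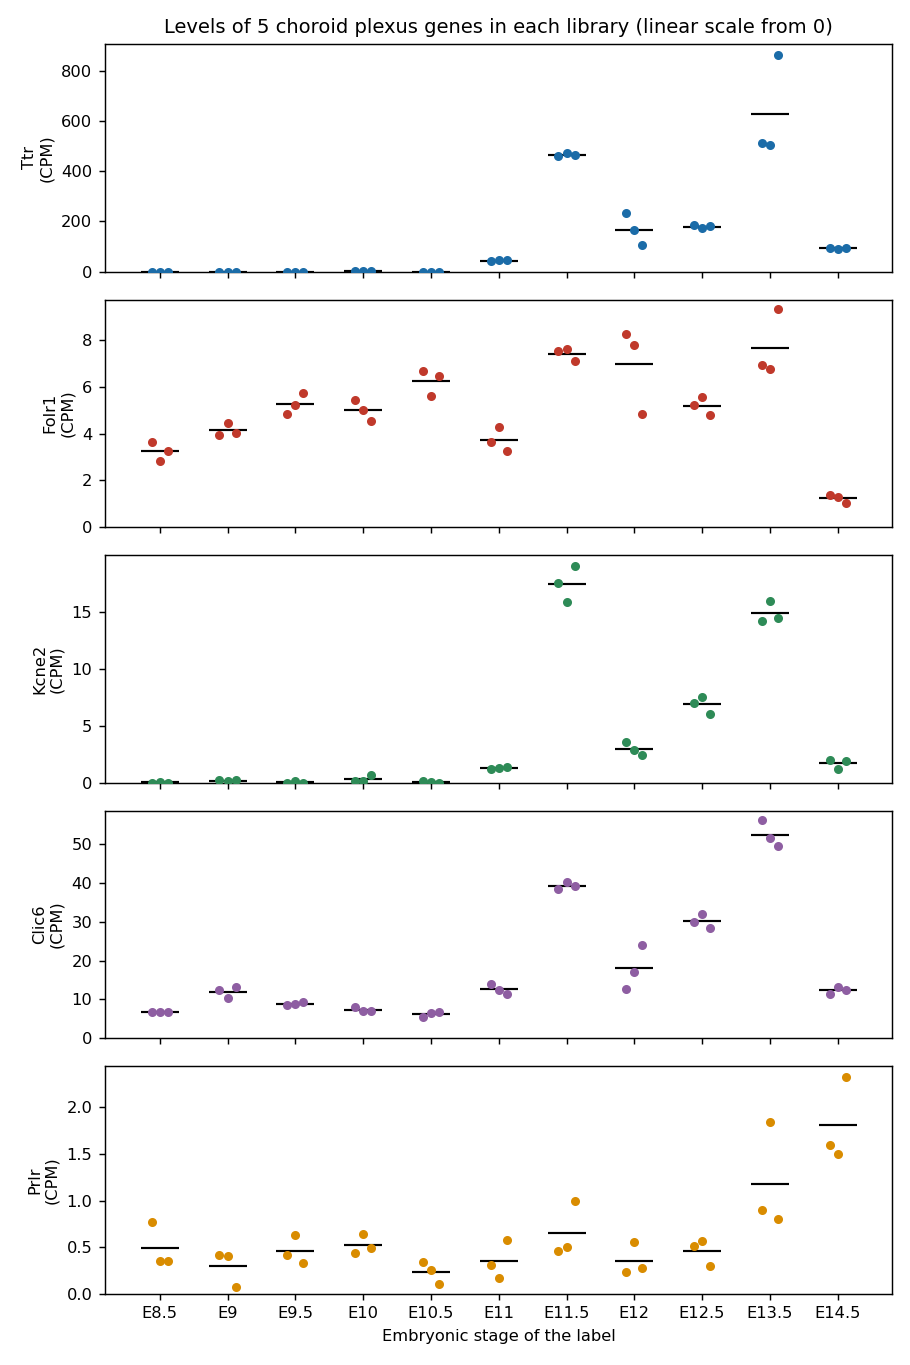
Level in CPM (linear vertical axis from 0, a scale of its own for each gene) of Ttr, Folr1, Kcne2, Clic6 and Prlr in each of the 33 libraries, by embryonic stage on the horizontal axis. Points are libraries a, b and c from left to right and the bar is their mean. Ttr, Kcne2 and Clic6 are high at E11.5 (means of 466, 17.4 and 39.3 CPM) and at E13.5 (628, 14.8 and 52.4 CPM) and lower at E12, E12.5 and E14.5, whereas Prlr is highest at E14.5 and Folr1 lowest there.

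The contrast of E12.5 with E10.5 chose the members and is given without a test. Ttr had 9604 counts over the 3 libraries of E12.5 and 2 over those of E10.5, a ratio of 5090 (95% counting interval 1410 to 42000). Its fitted log2 fold change of 12.05 ranked first among 20073 genes. The genes next to it, among those with at least 5 CPM at E12.5, were the cortical neuron transcription factors Neurod6 (9.87) and Neurod2 (7.75) and the matrix protein Aspn (7.16). In the same contrast the log2 fold change was 6.47 for Kcne2 (rank 37), 2.27 for Clic6 (rank 781), 0.99 for Prlr (rank 2527) and -0.26 for Folr1 (rank 14986), so the members differ widely in the measure that brought Ttr forward.

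In the 7 contrasts that used neither E10.5 nor E12.5, Ttr passed the test every time. The test was edgeR's quasi-likelihood test with Benjamini-Hochberg adjustment over all 20073 genes. Ttr was chosen for a rise that spans E11 and E11.5, so its rises to those stages are not independent of that choice. It was higher at E10 than at E8.5 by 3.16 ± 0.59 on the log2 scale (± SE, adjusted p = 5.99e-05), higher at E11 than at E10 by 4.75 ± 0.26 (adjusted p = 4.08e-14). It was higher at E11.5 than at E11 by 3.40 ± 0.20 (adjusted p = 3.6e-13). It then fell by 1.48 ± 0.18 at E12 against E11.5 (adjusted p = 7.15e-08), was higher at E13.5 than at E12 by 1.91 ± 0.19 (adjusted p = 2.04e-09) and fell by 2.74 ± 0.19 at E14.5 against E13.5 (adjusted p = 2.19e-12). Over the whole course the mean at E14.5 was 545 times that at E8.5 (93.7 and 0.172 CPM, adjusted p = 1.4e-18). Within E12 and E13.5 the SD of the Ttr level was larger than at other stages. The lowest library of E12, c at 105 CPM, and the highest of E13.5, c at 865 CPM, were those with the strongest deviation with gene length. Kcne2 was not set apart in E13.5 c, at 14.4 CPM against 14.2 and 15.9 CPM in a and b. Leaving out any single library kept Ttr between -1.86 and -1.30 at E12 against E11.5 and between 1.61 and 2.28 at E13.5 against E12 on the log2 scale. In bulk tissue, more cells that express a gene and more RNA of that gene per cell cannot be told apart.

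Kcne2, a small accessory subunit that pairs with potassium channels such as Kcnq1 and Kcna3 in the apical membrane of the plexus, followed the steps of Ttr from E11 on. It held 1 count over the 3 libraries of E8.5, 9 over those of E9 and 2 over those of E9.5, whereas Ttr held 8, 1 and 0 there. Its level was 1.23, 1.33 and 1.37 CPM at E11, 17.5, 15.8 and 19.0 CPM at E11.5, 3.58, 2.84 and 2.44 CPM at E12, 7.0, 7.53 and 6.05 CPM at E12.5, 14.2, 15.9 and 14.4 CPM at E13.5, and 2.03, 1.18 and 1.92 CPM at E14.5. E11.5 and E13.5 overlapped at the top of the order, E12.5 and then E12 stood below them with no overlap, and E14.5 overlapped E11. Kcne2 was higher at E11.5 than at E11 by 3.73 ± 0.26 (adjusted p = 3.72e-12), fell by 2.57 ± 0.24 at E12 (adjusted p = 3.38e-10), was higher at E13.5 than at E12 by 2.34 ± 0.24 (adjusted p = 2.95e-09) and fell by 3.11 ± 0.25 at E14.5 against E13.5 (adjusted p = 1.36e-11). Against the single count of E8.5, the ratio was 78.2 at E14.5 (102 counts, 95% counting interval 13.7 to 3120, adjusted p = 5.89e-09).

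The early Kcne2 values rest on few reads. At E10 the libraries a, b and c held 3, 2 and 13 counts, a ratio of 15.9 to E8.5 (95% counting interval 2.51 to 661, adjusted p = 0.00255), and without library c the contrast no longer passed (adjusted p = 0.0755). At E11 against E10 Kcne2 was higher by 1.89 ± 0.41 (adjusted p = 0.000528), and by 3.06 with library c of E10 left out.

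Clic6, of the chloride intracellular channel family, differed from Ttr and Kcne2 in being present from the start. Its level was 6.67, 6.67 and 6.66 CPM at E8.5, and stage means lay between 6.23 ± 0.666 CPM at E10.5 and 12 ± 1.51 CPM at E9 over the first 5 stages. It had 270, 221 and 219 counts at E11 (12.6 ± 1.2 CPM). The level was 38.5, 40.2 and 39.3 CPM at E11.5, 12.7, 17.1 and 24.1 CPM at E12, 29.9, 32 and 28.5 CPM at E12.5, 56.1, 51.5 and 49.5 CPM at E13.5, and 11.4, 13.2 and 12.4 CPM at E14.5. The 4 highest stages, E13.5, E11.5, E12.5 and E12, did not overlap each other, and E12, E11, E14.5 and E9 overlapped their neighbours in the order. Clic6 was higher at E11 than at E10 by 0.77 ± 0.15 (adjusted p = 0.000135) and higher at E11.5 than at E11 by 1.65 ± 0.14 (adjusted p = 2.02e-10). It fell by 1.12 ± 0.13 at E12 (adjusted p = 2.64e-08), was higher at E13.5 than at E12 by 1.53 ± 0.13 (adjusted p = 1.37e-10) and fell by 2.09 ± 0.14 at E14.5 (adjusted p = 1.77e-13), which left it at 1.85 times the E8.5 mean (log2 fold change 0.88 ± 0.15, adjusted p = 5.87e-06). Within E12, Clic6 was lowest in library a and highest in library c, the reverse of Ttr, whose order was 234, 164 and 105 CPM, and of Kcne2. The exonic length of Clic6 was 3914 bases, against 1186 for Ttr and 1767 for Kcne2.

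Folr1 (ENSMUSG00000001827, chromosome 7, 101858331 to 101870788, minus strand), which binds folate at the cell surface and moves it across the plexus into the fluid, had a course of its own. Its stage means were 3.25 ± 0.406, 4.15 ± 0.283, 5.26 ± 0.462, 4.99 ± 0.449 and 6.25 ± 0.563 CPM from E8.5 to E10.5, when the stage means of Ttr were at most 1.63 CPM and those of Kcne2 at most 0.337 CPM. It was 3.65, 4.27 and 3.26 CPM at E11, 7.52, 7.61 and 7.11 CPM at E11.5, 8.25, 7.81 and 4.83 CPM at E12, 5.22, 5.56 and 4.80 CPM at E12.5, 6.93, 6.78 and 9.32 CPM at E13.5, and 1.39, 1.28 and 1.05 CPM at E14.5. The 6 highest stages each overlapped the next in the order, and E14.5 stood below all other stages with no overlap. Folr1 was higher at E10 than at E8.5 by 0.61 ± 0.18 (adjusted p = 0.00534) and higher at E11.5 than at E11 by 0.99 ± 0.17 (adjusted p = 4.78e-05). It did not pass at E11 against E10 (-0.42 ± 0.17, adjusted p = 0.0649), E12 against E11.5 (-0.11 ± 0.16, adjusted p = 0.575) or E13.5 against E12 (0.15 ± 0.16, adjusted p = 0.434). It fell by 2.62 ± 0.19 at E14.5 against E13.5 (adjusted p = 2.18e-12) and, alone among the members, ended below its E8.5 level, with a log2 fold change of -1.39 ± 0.21 at E14.5 (adjusted p = 8.02e-07).

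Prlr (ENSMUSG00000005268, chromosome 15, 10177238 to 10349180, plus strand), the receptor for prolactin, had its highest mean at E14.5, unlike the other members. It was the least abundant member per kilobase from E11 on. Between 13 and 37 counts per stage were found up to E12.5, with means from 0.232 ± 0.119 CPM at E10.5 to 0.656 ± 0.299 CPM at E11.5, and every stage overlapped its neighbour in the order of means. The libraries held 0.902, 1.84 and 0.803 CPM at E13.5 and 0.233, 0.552 and 0.278 CPM at E12, and 1.6, 1.5 and 2.33 CPM at E14.5 and 0.772, 0.355 and 0.351 CPM at E8.5. The groups did not overlap in either pair. Prlr was higher at E13.5 than at E12 by 1.76 ± 0.51 (adjusted p = 0.00407), a call that ended without library b of E13.5 (1.28, adjusted p = 0.0571), and higher at E14.5 than at E8.5 by 1.89 ± 0.46 (adjusted p = 0.00054). The other 5 contrasts did not pass, with adjusted p between 0.136 and 0.89.

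Read against the background of all tested genes, the members' counts were as follows. At E11.5 against E11, 4 of 5 members were higher, where 23.0% of tested genes were called, 10.7% higher and 12.3% lower. At E12 against E11.5, 3 of 5 (Ttr, Kcne2 and Clic6) were lower, where 68.8% of genes were called, 33.3% higher and 35.6% lower. At E13.5 against E12, 4 of 5 were higher, where 58.4% of genes were called, 30.3% higher and 28.1% lower. At E14.5 against E13.5, 4 of 5 were lower, where 50.9% of genes were called, 24.0% higher and 26.9% lower. Earlier, 3 of 5 were higher at E10 against E8.5, where 52.4% of genes were called, 30.2% higher and 22.2% lower, and 3 of 5 at E11 against E10, where 31.8% were called, 17.2% higher and 14.6% lower. At E14.5 against E8.5, 4 of 5 were higher and 1 lower, where 74.6% of genes were called, 41.1% higher and 33.5% lower. All 5 also passed an F-test for any difference among the 9 stages other than E10.5 and E12.5 (adjusted p from 2.32e-25 for Ttr to 2.12e-05 for Prlr), which 95.4% of tested genes passed. In the fit of all libraries, the largest gap between members and all genes was thus in the step to E11.5. That step and the step to E11 overlap the rise from E10.5 to E12.5 that chose Ttr, so they are not independent of that choice. In every other contrast at least 50.9% of genes were called in that fit. A fit of only the 6 libraries compared called more genes at E11.5 against E11 and fewer at E13.5 against E12, which reversed their order. With 5 members, such counts say little.

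**Figure D2:**
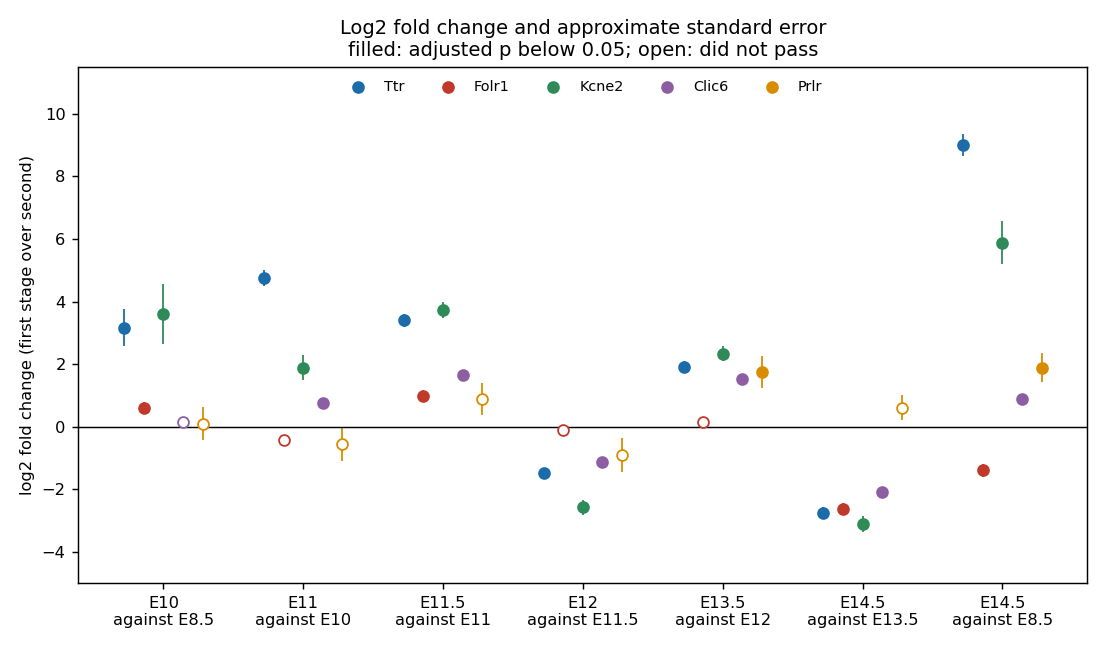
Log2 fold change of the 5 members in 7 contrasts between stages (vertical axis, later stage over earlier stage), with approximate standard errors as bars. Filled points passed at an adjusted p below 0.05 and open points did not. Ttr, Kcne2 and Clic6 change sign together from E11.5 on, as with Ttr at 3.40, -1.48, 1.91 and -2.74 in the 4 contrasts from E11.5 against E11 to E14.5 against E13.5. The Kcne2 values against E8.5 rest on 1 count at E8.5.

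Across the 33 libraries, the correlation of log2 CPM was 0.95 between Ttr and Kcne2, 0.92 between Kcne2 and Clic6 and 0.82 between Ttr and Clic6. It was 0.36 between Folr1 and Clic6, 0.26 between Folr1 and Kcne2 and 0.10 between Folr1 and Ttr. For Prlr it was 0.44 with Ttr, 0.40 with Kcne2, 0.32 with Clic6 and -0.39 with Folr1. Without the E10.5 and E12.5 libraries, which the choice of members used, it was 0.94 between Ttr and Kcne2, 0.90 between Kcne2 and Clic6, 0.77 between Ttr and Clic6 and at most 0.47 in the other pairs (27 libraries). Ttr, Kcne2 and Clic6 thus had the 3 highest values among the members in both sets of libraries, while Folr1 shared the steps at E11.5 and E14.5 and Prlr that at E13.5. These values describe libraries that share their stages and are not independent points. Of 14692 other protein-coding genes whose highest stage mean reached 1 CPM, 17 were more like Ttr than Kcne2 was, 894 more than Clic6, 4669 more than Prlr and 6938 more than Folr1. Without E10.5 and E12.5 these numbers were 129 for Kcne2, 1898 for Clic6, 5170 for Prlr and 6587 for Folr1.

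Over all 33 libraries, which include both stages that chose Ttr, the 5 genes most like Ttr were Nfix (r = 0.975), a transcription factor of the nuclear factor I family, Ppp2r2b (0.973), a regulatory subunit of protein phosphatase 2A, the calcium-binding protein Calb2 (0.971), the retinaldehyde-binding protein Rlbp1 (0.968) and Acsm4 (0.962), an acyl-CoA synthetase. Nfix averaged 0.689 CPM at E8.5, 43.6 at E11, 204 at E11.5, 61.8 at E12, 316 at E13.5 and 82.4 at E14.5, so its steps matched those of Ttr in direction. The means of Ppp2r2b, Rlbp1 and Acsm4 also fell at E12 and were higher at E13.5. Calb2 went the other way, with 13.6 CPM at E11.5, 26.0 at E12 and 17.9 at E13.5, although its E12 and E13.5 libraries overlapped. A high correlation thus did not require shared steps. The genes most like Kcne2 were Htr2c (0.967), the serotonin receptor that is abundant in choroid plexus, and Neurod6 (0.962), a transcription factor of cortical neurons. Those most like Clic6 were the glycolytic enzyme Aldoc (0.951) and the amino acid transporter Slc6a15 (0.935), those most like Folr1 were the channel protein Panx1 (0.895) and the forebrain transcription factor Fezf2 (0.874), and those most like Prlr were the odorant receptor gene Olfr539 (0.854) and the natriuretic peptide receptor Npr3 (0.82). Without E10.5 and E12.5, the 5 genes named for Ttr ranked between 6 and 36, and those named for the other members between 1 and 7.

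The proportions among the members also changed with stage. Ttr took 71.0% of the members' summed counts at E11, 87.8% at E11.5, 84.8% at E12, 80.7% at E12.5, 89.0% at E13.5 and 84.6% at E14.5. Before E11 it took at most 11% (at E10), and Clic6 and Folr1 made up most of the sum, with 62.9% and 30.7% at E8.5. Per kilobase of exon, Ttr was at 39.1 ± 0.293 times Clic6 at E11.5 and 11.7 ± 1.73 times at E11, and Clic6 was at 1.02 ± 0.112 times Kcne2 at E11.5 and 4.35 ± 0.659 times at E11 (SD, n = 3 each). The ratio of Ttr to Kcne2 was closer between these stages, at 40.1 ± 4.13 at E11.5 and 50.1 ± 1.1 at E11. At E12 the ratio of Ttr to Clic6 ran from 14.3 to 61.0 among the 3 libraries, against 38.8 to 39.4 at E11.5.

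**Figure D3:**
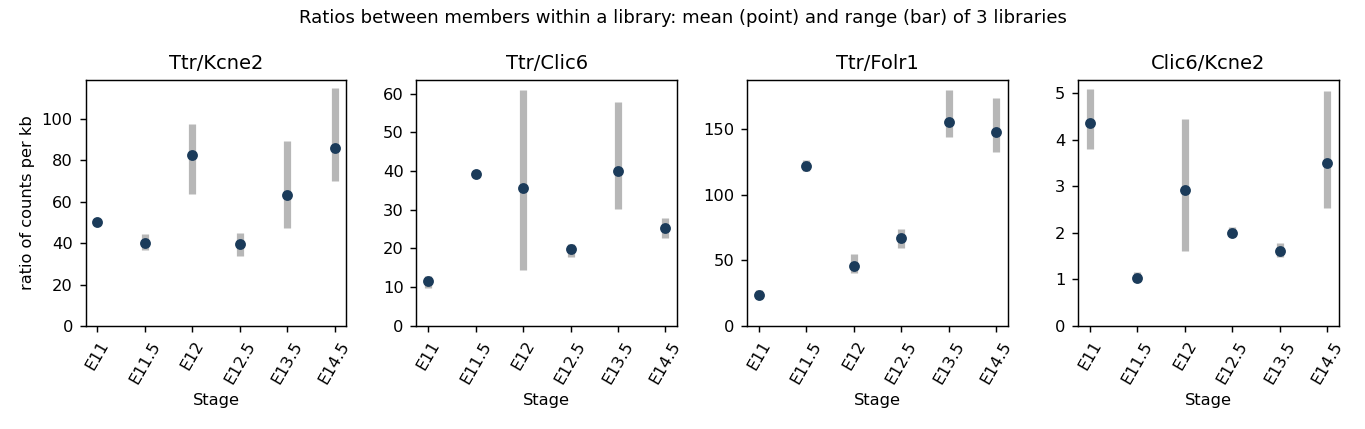
Ratio of counts per kilobase of exon between pairs of members within a library (vertical axes from 0) at the 6 stages from E11 to E14.5, with the mean of 3 libraries as a point and their range as a bar. The ratio of Ttr to Clic6 spans 14.3 to 61.0 at E12 and 38.8 to 39.4 at E11.5, and the ratio of Ttr to Folr1 is highest at E13.5, at 156 ± 20.7.

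At E14.5, levels were 79.0 CPM per kilobase for Ttr, 3.14 for Clic6, 0.968 for Kcne2, 0.541 for Folr1 and 0.118 for Prlr. At E8.5 they were 1.70 CPM per kilobase for Clic6, 1.42 for Folr1, 0.145 for Ttr, 0.0321 for Prlr and 0.0134 for Kcne2. Ttr and Kcne2 had moved up the order of levels, and Folr1 had moved down.

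Kcne2 and Clic6 lie 188 kb apart on chromosome 16, with Smim11, Fam243, Kcne1 and Rcan1 between them. Smim11 (a small membrane protein) correlated with Kcne2 at 0.08, Rcan1 (an inhibitor of calcineurin) at 0.03 and Kcne1 (the cardiac and inner ear relative of Kcne2) at -0.70, against 0.92 for Clic6. Kcne1 averaged 0.0535 CPM at E14.5, against 1.1 CPM at E8.5, the reverse of Kcne2. Fam243 had 71 counts in all libraries and was not tested, with means of 0.0698 CPM at E11, 0.428 at E11.5, 0.150 at E12, 0.378 at E13.5 and 0.107 at E14.5, which moved in the same directions as Kcne2. The strand setting of the counting is not given in the sources used here, so reads of genes that overlap on opposite strands may not be told apart.

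**Figure D4:**
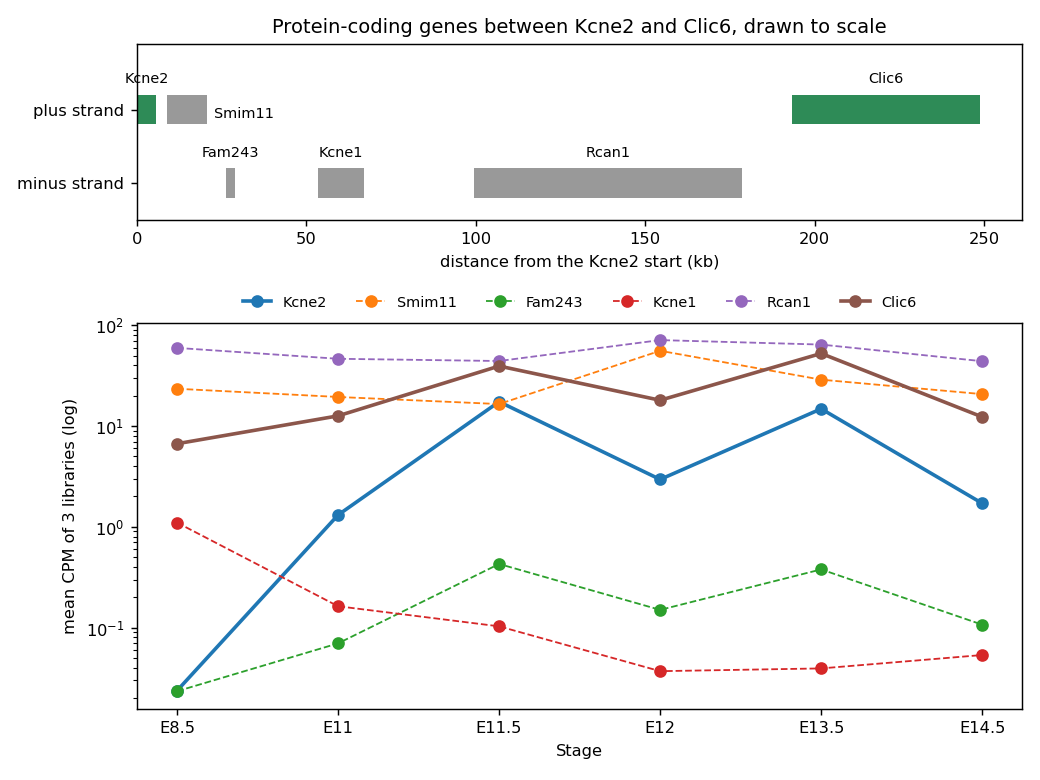
Top, the 6 protein-coding genes from Kcne2 to Clic6 on chromosome 16, drawn to scale by distance from the Kcne2 start in kilobases and by strand. Bottom, their mean CPM over 3 libraries on a log axis at 6 stages, with Kcne2 and Clic6 as thick lines. Kcne2 and Clic6 are higher at E11.5 and E13.5 than at E11, E12 and E14.5, whereas Smim11 and Rcan1 are highest at E12, at 55.7 and 71.1 CPM.

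Other genes of the plexus were followed in lists compiled from textbook knowledge. Of 22 transport genes of the epithelium, 13 were higher and 2 lower at E11.5 against E11, where 10.7% of all tested genes were higher and 12.3% lower. The median log2 fold change of the list was 0.58, against -0.05 for all genes. For E14.5 set against E8.5, 14 rose and 5 fell (median 0.95 against 0.16), where 41.1% of all tested genes were higher and 33.5% lower. The sodium bicarbonate transporter Slc4a10 had 2 counts at E8.5 and averaged 2.82 CPM at E11, 9.69 at E11.5, 1.38 at E12 and 8.91 at E13.5, with 618 counts at E14.5. The water channel Aqp1 was higher at E14.5 than at E8.5 by 6.57 ± 0.19 (adjusted p = 1.36e-22) and higher at E11.5 than at E11 by 1.46 ± 0.14 (adjusted p = 3.42e-09). The cation channel Trpm3 was higher by 4.37 ± 0.29 (adjusted p = 2.78e-14), and the carbonic anhydrase Car14 fell by 4.70 ± 0.11 (adjusted p = 2.1e-24), at E14.5 against E8.5. Aqp1 stayed high at E14.5 (101 CPM, against 66 CPM at E13.5), where Ttr, Kcne2 and Clic6 fell.

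Of 23 secreted and surface proteins of the epithelium, 12 were higher at E11.5 against E11 (median 0.65), and 17 were higher and 4 lower at E14.5 against E8.5 (median 1.67 against 0.16 for all genes). Htr2c had 0 counts at E8.5 and averaged 1.99 CPM at E11, 14.2 at E11.5, 2.21 at E12 and 2.48 at E14.5, with 566 counts at E13.5. Tmem72, a membrane protein, had 0 counts at every stage up to E10.5 and averaged 0.143 CPM at E11, 2.43 at E11.5, 0.0263 at E12, 2.55 at E13.5 and 1.26 at E14.5. The protease inhibitor Wfikkn2 was higher at E11.5 than at E11 by 1.18 ± 0.21 (adjusted p = 0.0001), and 1500015O10Rik, which encodes a secreted peptide also called augurin, by 2.99 ± 0.36 (adjusted p = 2.68e-07). At E12 against E11.5, where 35.6% of all genes were lower, 16 of 22 transport genes were lower and 4 higher. In the same contrast 11 of 23 secreted and surface genes were lower and 5 higher. Of the lists, 14 to 17 and 10 to 13 genes were lower when a library was left out or a gene length trend removed. The summed level of the secreted and surface list went the other way, at 1050 to 1830 CPM at E12 and 658 to 670 CPM at E11.5. At E13.5 against E12, where 30.3% of all genes were higher, 16 in each list were higher, and 15 to 17 and 16 to 17 under the same changes, while the secreted and surface sum was 1220 to 1760 CPM at E13.5. At E14.5 against E13.5, where 24.0% of all genes were higher and 26.9% lower, 11 transport genes were lower and 5 higher. There, 8 secreted and surface genes were lower and 6 higher, a balance that turned to 7 lower and 8 higher with library totals alone.

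The dorsal midline and cortical hem, from which the plexus arises, were followed by 17 genes. At E11.5 against E11, 3 were higher and 9 lower, where 10.7% of all tested genes were higher and 12.3% lower. That balance was opposite to the members, and was 5 higher and 7 lower with library totals alone. For E14.5 set against E8.5, 7 rose and 8 fell (9 and 8 with library totals alone). There, 41.1% of all tested genes were higher and 33.5% lower. The homeodomain factor Otx2, needed to form the plexus in mice, fell by 2.97 ± 0.09 at E14.5 against E8.5 (adjusted p = 1.76e-22) and by 1.07 ± 0.08 at E11.5 against E11 (adjusted p = 3.74e-11), and the roof plate factor Lmx1a fell by 1.81 ± 0.15 at E14.5 against E8.5 (adjusted p = 3.93e-12). The ligands Wnt1 and Wnt8b had log2 fold changes of -8.42 ± 0.38 (adjusted p = 2.4e-17) and -6.61 ± 0.31 (adjusted p = 9.6e-18) in that contrast. The 7 genes that rose included the ligands Bmp4 (1.45 ± 0.12, adjusted p = 9.93e-12), Wnt5a (1.33 ± 0.13, adjusted p = 2.35e-10), Rspo3 (1.25 ± 0.12, adjusted p = 2.54e-10) and Bmp6 (1.2 ± 0.18, adjusted p = 4.84e-07). At E14.5 against E13.5, 8 of 9 tested genes of multiciliated cells (11 listed) were lower, against 26.9% of all tested genes. At E14.5 against E8.5, 6 of the 9 were higher and 3 lower. The 3 lower genes did not pass with library totals alone. The regulators Gmnc and Ccno were higher at E14.5 than at E8.5 by 2.90 ± 0.46 (adjusted p = 2.14e-06) and 2.70 ± 0.52 (adjusted p = 3.18e-05). The regulator Mcidas averaged 1.15 CPM at E14.5 and had 1 count at E8.5, and the cilium gene Ccdc113 averaged 0.608 CPM at E14.5 and had 0 counts at E8.5.

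The relatives and partners of each member were followed at E14.5 against E8.5, where Folr1 fell and the other members were higher. In that contrast 41.1% of all tested genes were higher and 33.5% lower. Of 13 tested folate genes, 11 were lower and 2 higher at E14.5 against E8.5, among them the uptake receptor Lrp2 (-4.19 ± 0.17, adjusted p = 5.78e-19) and the mitochondrial enzymes Mthfd1l (-2.99 ± 0.09, adjusted p = 5.67e-22) and Mthfd2 (-2.25 ± 0.10, adjusted p = 1.33e-18), whereas Folr2, the folate receptor of macrophages, was higher (3.38 ± 0.45, adjusted p = 9.44e-08). Of 9 relatives and partners of Kcne2, 4 were higher and 2 lower in that contrast, with a median log2 fold change of 0.16, the same as for all genes. Kcne4 averaged 32.4 CPM at E14.5 and had 0 counts at E8.5, the channel Kcna2 was higher by 4.24 ± 0.37 (adjusted p = 1.46e-11), Kcne1l was higher by 1.57 ± 0.19 (adjusted p = 2e-08) and Kcne1 fell by 4.25 ± 0.85 (adjusted p = 5.01e-05). Of the 4 other Clic genes, Clic5 (3.91 ± 0.44, adjusted p = 3.2e-09), Clic3 (3.17 ± 0.37, adjusted p = 8.57e-09) and Clic1 (0.51 ± 0.17, adjusted p = 0.00773) were higher and Clic4 was lower (-1.46 ± 0.14, adjusted p = 1.16e-10). At E11.5 against E11, where Clic6 was higher and 23.0% of all tested genes were called, these 4 did not pass. Their log2 fold changes were -0.23 for Clic1, 0.54 for Clic3, -0.32 for Clic4 and -0.74 for Clic5, with adjusted p from 0.088 to 0.359.

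At E14.5 against E8.5, 41.1% of all tested genes were higher and 33.5% lower. Prolactin itself (Prl) had 0 counts in all 33 libraries. Of 6 tested genes of its receptor's pathway, 5 rose at E14.5 relative to E8.5, namely the growth hormone receptor Ghr (2.42 ± 0.12, adjusted p = 8.87e-17), the transcription factor Stat5a (1.31 ± 0.23, adjusted p = 8.26e-06), the feedback inhibitor Cish (1.2 ± 0.15, adjusted p = 2.53e-08), the kinase Jak2 (0.91 ± 0.11, adjusted p = 7.55e-09) and 1 other. Of 10 genes that handle retinol and thyroid hormone, the cargoes of transthyretin, 6 were higher and 2 lower, and the 4 largest changes were higher values of the thyroid hormone receptors Thra (2.93 ± 0.12, adjusted p = 1.64e-19) and Thrb (2.24 ± 0.33, adjusted p = 6.39e-07) and of the deiodinases Dio3 (2.52 ± 0.24, adjusted p = 1.52e-10) and Dio2 (2.47 ± 0.42, adjusted p = 6.14e-06).

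Markers of other tissues were measured beside the members, since Ttr is made in several, and their part in the members' levels was not tested. Of 11 genes of visceral endoderm and liver, 6 were tested. Afp and Alb, which define those tissues, had 29 and 48 counts over all 33 libraries, and the summed level of the list lay between 4.8 and 6.0 CPM at E11.5 and between 4.68 and 6.88 CPM at E11, when Ttr averaged 466 and 44.1 CPM. In this list 1 gene was higher (Cubn, 1.9 ± 0.26, adjusted p = 1.43e-07) and 2 were lower (Apob, -2.73 ± 0.44, adjusted p = 2.64e-06, and Apom, -1.07 ± 0.43, adjusted p = 0.0264) at E14.5 against E8.5. In that contrast 41.1% of all tested genes were higher and 33.5% lower. Of 11 genes of the retinal pigment epithelium, 9 were tested, and Rpe65 and Rgr had 7 and 14 counts over all libraries. The summed level of the list was 56.1 to 58.8 CPM at E10, against 8.92 to 12.6 CPM at E8.5, and it lay between 56.6 and 61.2 CPM at E11.5, against 65.9 to 71.7 CPM at E11. Of the 9, 8 had risen at E14.5 relative to E8.5, against 41.1% of all tested genes. Among them were the pigment genes Pmel (3.41 ± 0.24, adjusted p = 1.09e-13) and Trpm1 (2.93 ± 0.25, adjusted p = 1.63e-11), while Dct and Tyr averaged 12.6 and 4.63 CPM at E14.5 and had 1 and 0 counts at E8.5. Dct and Tyr are also expressed by melanocytes, and Rlbp1 of this list is among the genes most like Ttr.

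Brain markers were abundant in tissue labelled frontal bone. The summed level of 12 genes of neural progenitors and forebrain was 1560 to 1590 CPM at E11.5, 1920 to 1980 at E11, 2520 to 2800 at E12, 1280 to 1530 at E13.5 and 281 to 298 at E14.5. At E12 against E11.5, where Ttr, Kcne2 and Clic6 fell, 10 of 12 were higher, against 33.3% of all tested genes. With library totals alone, 7 were higher and 2 lower there. At E13.5 against E12, where those 3 members were higher, all 12 were lower (10 with library totals alone), against 28.1% of all tested genes. At E14.5 against E13.5 all 12 were again lower, against 26.9% of all tested genes. Set against E8.5, 2 were higher at E14.5, the lipid-binding protein Fabp7 (2.41 ± 0.18, adjusted p = 2.99e-13) and Emx2 (0.27 ± 0.09, adjusted p = 0.00929). The other 10 were lower, with the largest changes in Sox3 (-6.53 ± 0.20, adjusted p = 2.58e-22), Sox1 (-6.26 ± 0.14, adjusted p = 2.39e-25), Hes5 (-3.31 ± 0.22, adjusted p = 3.39e-14) and Sox2 (-3.24 ± 0.09, adjusted p = 3.47e-23). Of 8 neuron genes, 4 were lower and 2 higher at E12 against E11.5, and 3 were higher and 2 lower at E13.5 against E12. Dcx, Snap25 and Syt1 went in the directions of Ttr, Kcne2 and Clic6 (-2.05, -1.40 and -1.57, then 1.01, 1.12 and 0.95). Tubb3 and Stmn3 went the other way (0.46 and 0.60, then -0.74 and -0.59). All 8 were lower at E14.5 against E13.5 and higher at E14.5 against E8.5. The largest of these changes from E8.5 were in Dcx (5.32 ± 0.27, adjusted p = 4.02e-17), Snap25 (3.61 ± 0.17, adjusted p = 1.2e-17), Syt1 (3.35 ± 0.20, adjusted p = 3.26e-15) and Stmn3 (3.13 ± 0.24, adjusted p = 1.03e-12). Of 10 tested hindbrain genes, 2 were higher and 6 lower at E14.5 against E8.5, where 41.1% of all tested genes were higher and 33.5% lower. Hoxd3 averaged 4.09 CPM at E14.5 and had 0 counts at E8.5 (adjusted p = 4.24e-09). Atoh1 had 0 counts at E14.5 and 24 at E8.5 (adjusted p = 3.84e-06). En2 (-8.16 ± 0.24, adjusted p = 2.11e-22) and Gbx2 (-6.22 ± 0.36, adjusted p = 1.17e-15) were lower. The summed level of the hindbrain list averaged 12.7 ± 0.994 CPM at E11.5 and 18.3 ± 1.3 CPM at E11 (SD, n = 3 each).

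In the steps from E11.5 on, most of the 4 genes of the meninges changed in the directions of Ttr, Kcne2 and Clic6. Kcne2 and Clic6 were higher at E12.5 than at E12, whereas the summed level of these 4 genes was lower. Their summed level was 36.4 to 39.6 CPM at E11, 64.4 to 68.7 at E11.5, 49.9 to 56.7 at E12, 40.6 to 47.3 at E12.5, 171 to 211 at E13.5 and 120 to 123 at E14.5. Of the 4, 3 were higher at E11.5 against E11 and 3 lower at E12 against E11.5, where 10.7% and 35.6% of all tested genes were so. At E13.5 against E12, 3 were higher and at E14.5 against E13.5, 4 were lower, against 30.3% and 26.9% of all tested genes. With 4 genes, such counts say little. At E14.5 against E8.5, prostaglandin D synthase Ptgds (8.68 ± 0.40, adjusted p = 8.15e-18), the GABA transporter Slc6a13 (5.47 ± 0.30, adjusted p = 4.74e-16) and the retinoic acid enzyme Aldh1a2 (2.39 ± 0.11, adjusted p = 1.56e-17) were higher and Foxc1 was lower (-0.27 ± 0.10, adjusted p = 0.0187). Ptgds and Slc6a13 are also known from choroid plexus, so this list does not separate the tissues. The labelled tissue showed its own markers, since all 7 frontal bone genes were higher at E14.5 against E8.5, where 41.1% of all tested genes were higher. The largest changes were in Ibsp (10.63 ± 0.29, adjusted p = 4.16e-21), Col1a1 (6.70 ± 0.20, adjusted p = 1.97e-22), Runx2 (6.28 ± 0.21, adjusted p = 4.97e-21) and Sp7 (3.75 ± 0.18, adjusted p = 1.33e-17). Of the 7 frontal bone genes, 5 were higher with a gene length trend removed, 6 with a replicate block and 6 to 7 with a library left out. Their summed level was 2550 to 2740 CPM at E14.5 and 1820 to 1850 CPM at E13.5, while that of the 5 choroid plexus genes was 108 to 112 CPM at E14.5 and 580 to 939 CPM at E13.5.

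**Figure D5:**
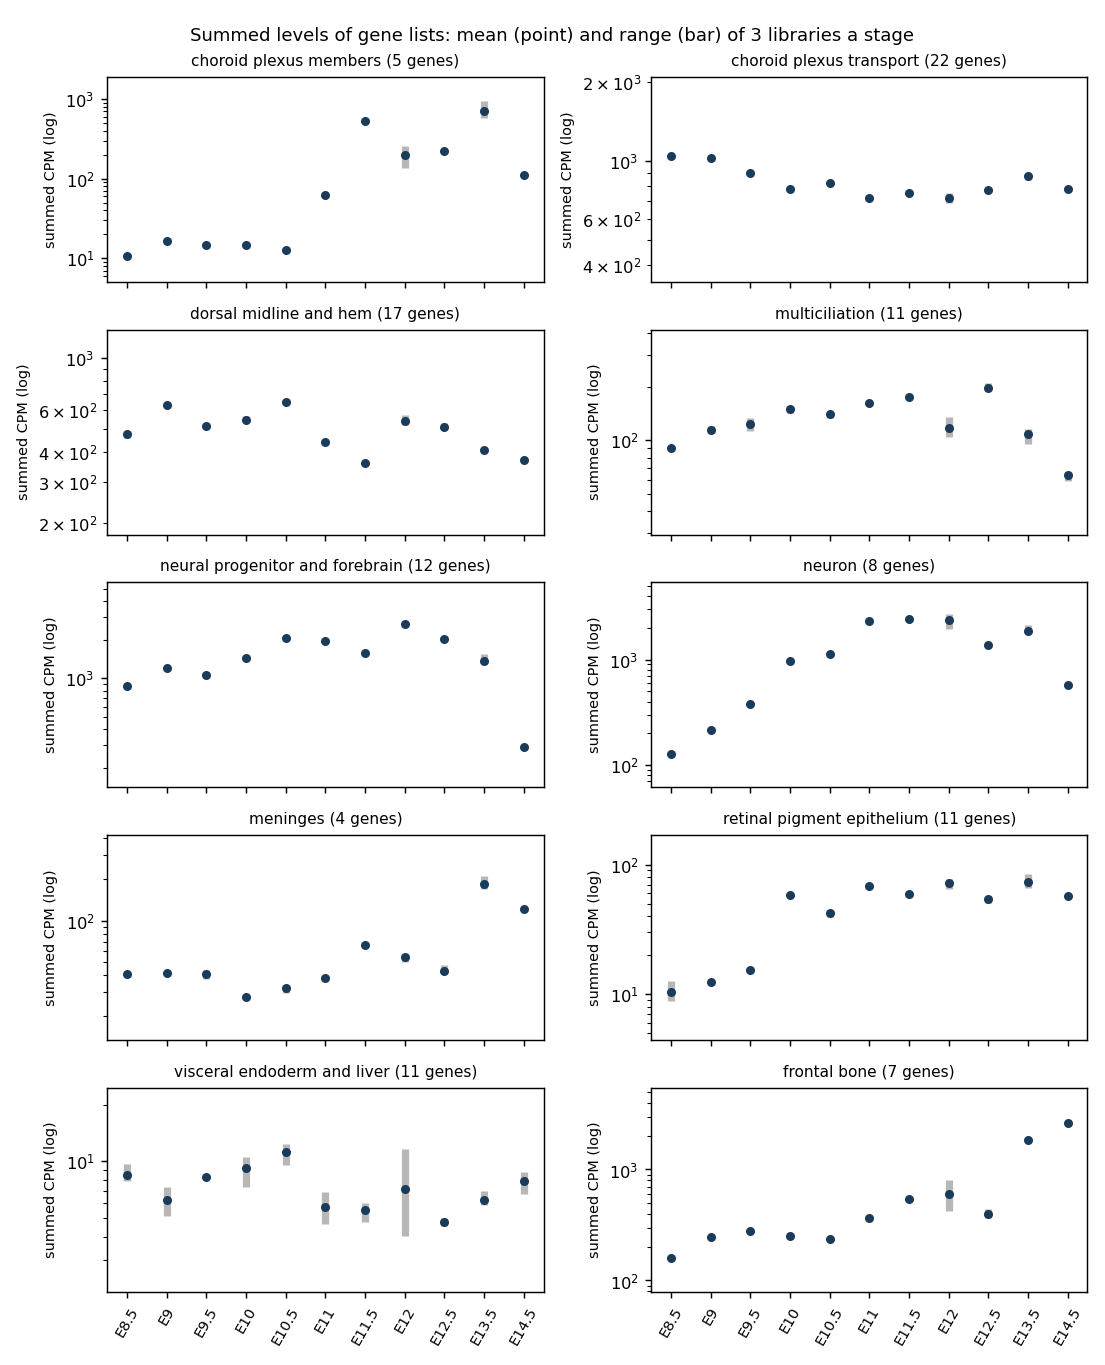
Summed CPM of 10 gene lists (log vertical axes, a scale of its own for each list) at the 11 stages, with the mean of 3 libraries as a point and their range as a bar. The choroid plexus members sum to 524 to 536 CPM at E11.5 and 580 to 939 CPM at E13.5, the neural progenitor list is lowest at E14.5 (281 to 298 CPM), and the visceral endoderm and liver list stays at or below 12.3 CPM in every library.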

How the data were processed

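Gene expression was measured by RNA sequencing in 33 libraries of the mouse frontal bone region, 3 at each of 11 stages. Values were deposited as unnormalized read counts by gene, a column for every library, next to a gene length, per the file headers. The authors used cutadapt 1.9.1, HISAT2 2.0.1 and HTSeq 0.6.1 with the build GRCm38, per the submitters' processing notes. The authors' annotation and strand option were not given in the sources used here. Column names gave the stage, and their letters, which the labels do not use, only name libraries. Symbols and coordinates came from GENCODE M21 (55141 of 55401 genes matched), promoters from RefSeq.

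The test was edgeR 4.0.16 under R 4.3.3 (filterByExpr by stage, TMM factors 0.797 to 1.175, a quasi-likelihood fit with a mean per stage on all 33 libraries, 22 residual degrees of freedom, Benjamini-Hochberg adjustment over 20073 genes, threshold 0.05). Tested genes took 99.86% to 99.96% of each library. Standard errors, derived from each F statistic, are approximations. Correlations used log2 CPM with a prior count of 2. Tested on simulated counts for E14.5 against E8.5 (19097 genes), the fit recovered 41.8% of genes changed by 1.5-fold, 65.7% by 2-fold and 87.9% by 4-fold, with 11 false calls. No pair of libraries of a stage agreed within sampling noise (chi-square per gene at least 1.85).

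The members, lists, tests and alternatives were chosen with earlier results of these data known. E12.5 against E10.5 chose the members and has no test. From each list, the text names the 4 genes with the largest change at E14.5 against E8.5 that passed, all genes of lists of up to 4, and the genes most like each member. Defining markers near 0 are named too, and Fabp7, Emx2, Bmp4, Wnt5a, Rspo3 and Bmp6 were chosen after their values were seen. Alternatives were DESeq2 1.42.0, its size factors, library totals, other filters, a replicate block, fewer libraries and stages, and, chosen after seeing the data, removal of a gene length trend, a fit without E11.5, E12 and E13.5, and correlations without E10.5 and E12.5.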

Additional observations from a re-analysis of the deposited data

How the results depend on the processing

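Of 535 values of the 35 member contrasts under alternatives, 518 kept their direction and their side of the threshold. With library totals alone, Folr1 passed at E12 against E11.5 (-0.50, adjusted p = 0.00299) and at E13.5 against E12 (0.41, adjusted p = 0.016), and Prlr passed at E12 against E11.5 (-1.28, adjusted p = 0.0368). Folr1 at E11 against E10 passed when libraries of E13.5, E12 and E11.5 were left out (-0.41, adjusted p = 0.0375). With a gene length trend removed, Folr1 passed at E11 against E10 (-0.39, adjusted p = 0.0448) and at E12 against E11.5 (-0.42, adjusted p = 0.0103), and values that did not pass changed sign for Clic6 (-0.0029) and Prlr (-0.29) at E10 against E8.5 and for Prlr at E12 against E11.5 (0.015). With only the 6 libraries compared in the fit, the genes called were 7720 at E11.5 against E11 (4613 in the fit of all libraries) and 4703 at E13.5 against E12 (11713 in the fit of all libraries). With 1 library left out in turn, values ran from -0.11 to 0.52 for Prlr and from 2.43 to 5.64 for Kcne2 at E10 against E8.5, from -0.53 to -0.33 for Folr1 at E11 against E10, from -0.31 to 0.035 for Folr1 at E12 against E11.5, and from 1.28 to 2.23 for Prlr and from -0.0011 to 0.36 for Folr1 at E13.5 against E12. Of these, leaving out E10 c or E13.5 b ended a call (Kcne2 and Prlr), leaving out E11 b gave one (Folr1, adjusted p = 0.0457), and the sign of Folr1 turned without E12 c or E13.5 c. For Kcne2 the values ran from 1.49 to 3.06 at E11 against E10 and from 5.34 to 7.92 at E14.5 against E8.5. The cause of these changes was not tested. Some filters and fits dropped a member below the minimum and gave no value for it. Column letters did not mark pairs: correlations of deviations were -0.377, -0.229 and -0.582 for letters a, b and c at E13.5 against E12, and -0.085 to 0.116 in the other contrasts. Whether the handling or labels of the E12 and E13.5 libraries bear on this was not tested. A replicate block on the letter changed no call of a member, and the genes called were 14895 at E14.5 against E8.5 (14974 without it). Depth limits Prlr at all stages and Ttr and Kcne2 before E11, where a stage held at most 109 counts.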
